A study of Mus musculus and Homo sapiens with 22 samples.

Results

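Predicted N6-methyladenosine (m6A) sites were examined in 9 genes of the cardiac sarcomere and its Z-disc in mouse heart: Myh6, Myh7, Mybpc3, Actc1, Tnnt2, Tnni3, Actn2, Ldb3 and Nebl. The genes were taken by name and are 9 of 21951 protein-coding genes of the annotation used. m6A had been mapped by miCLIP2: UV light joins an antibody against m6A to the RNA it has bound, and the site is read from the point where reverse transcription ends. The classifier m6Aboost then separated m6A sites from antibody background, with the sequence around the A and the transcript region among its inputs, so motif and region shares are in part built in. The heart RNA was commercial poly(A)+ RNA of murine heart tissue, for which the labels give no strain, age, sex or number of animals, and it was used at 1 µg, 300 ng, 100 ng and 50 ng (1 library and 1 site list per input). The titles of the 3 lower inputs are written in µg, whereas the methods and the site lists give ng, which is used here. The same RNA was diluted, so the 4 lists are not replicates, no test between them was made, and the intervals given below are exact 95% intervals that cover counting error only. The labels name 2 further groups used here, mouse embryonic stem cells (mESCs) that are wild type (WT) or knocked out for Mettl3 (KO), the former with a site list of its own and each with 3 RNA-seq libraries. Both cell genotypes came from an earlier publication, and whether the KO line is 1 clone is not given in the sources used here.

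The sarcomere is the contractile unit of striated muscle, in which thick filaments of myosin pull on thin filaments of actin that are anchored at the Z-disc. Calcium binding to the troponin complex on the thin filament permits the myosin heads to engage. m6A is set on messenger RNA by the METTL3-METTL14 complex, mostly at the consensus DRACH (D is A, G or T, R is A or G, H is A, C or T), and in mRNAs it is known to be frequent in long internal exons and near stop codons and rare close to splice junctions.

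6 of the 9 genes had at least 1 exon site in the 1 µg list, where 38.3% of all coding genes had one. The 9 genes together held 20 exon sites of the 46421 sites of that list, and 11 of the 20 lay in a single gene, Ldb3. Nebl held 4 sites, Tnnt2 held 2, and Myh6, Mybpc3 and Actn2 held 1 each. No exon site of Myh7, Actc1 or Tnni3 was listed at 1 µg. Site lists hold positions and no read depth, and no heart RNA-seq was used here, so fewer methylated positions, fewer transcripts and too few reads to call a peak cannot be told apart.

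Over the 56.073 kb of exon of the 9 genes, the density was 0.357 sites per kb (0.218 to 0.551). Pooled over the 8411 coding genes with at least 1 site it was 0.896 sites per kb, and over all coding genes 0.455 sites per kb. The 6 genes of the thick and thin filament held 4 sites, or 0.129 sites per kb (0.0352 to 0.331). The 3 genes of the Z-disc held 16 sites, or 0.637 sites per kb (0.364 to 1.03). The intervals of the 2 groups did not overlap. The separation seen rested on Ldb3, since the 8 other genes held 9 sites, or 0.180 sites per kb. On the exon length used here, the densities of Actn2 (0.264) and Nebl (0.263) lay beside that of Tnnt2 (0.258). On the longest coding transcript this likeness was lost, with 0 in Actn2, 0.495 in Nebl and 1.67 in Tnnt2.

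**Figure D1:**
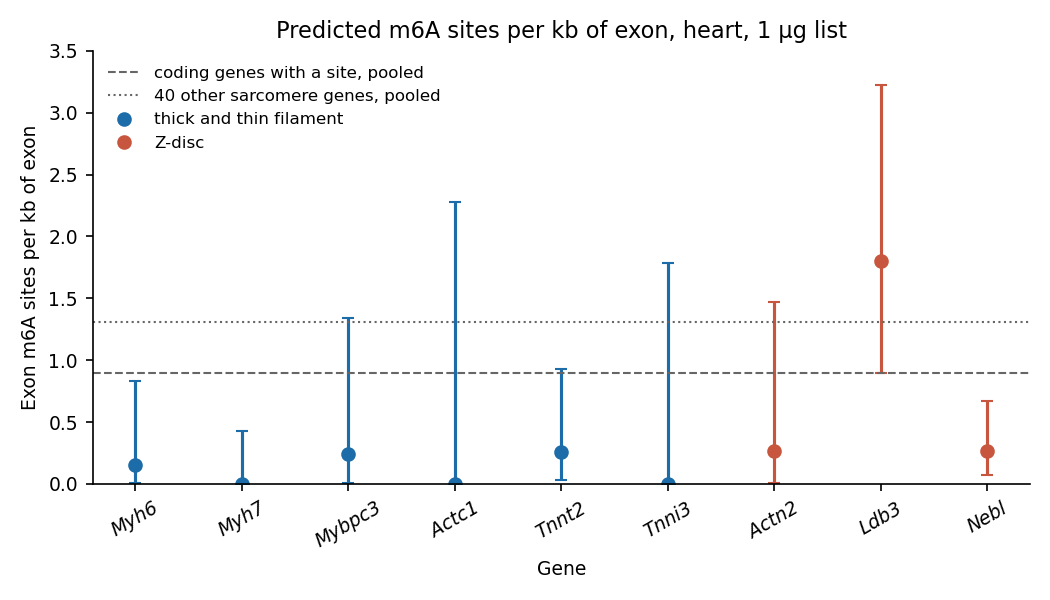
Exon sites per kb of exon in the 1 µg heart list (y axis) for each of the 9 genes (x axis); points are densities and bars exact Poisson 95% intervals, and the lines mark the pooled density of coding genes with a site (0.896) and of 40 other sarcomere genes (1.31). Ldb3 lies at 1.80 sites per kb, and the other 8 genes lie between 0 and 0.264.

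By gene, Ldb3 had the highest density with 1.80 sites per kb (0.899 to 3.22), which was higher than in 93.0% of all coding genes and in 81.7% of those with a site. By number of sites it ranked 859 among all coding genes. The other genes with a site could not be ordered, as their intervals overlapped. Actn2 had 0.264 sites per kb (0.00667 to 1.47), Nebl 0.263 (0.0715 to 0.672), Tnnt2 0.258 (0.0312 to 0.932) and Mybpc3 0.240 (0.00608 to 1.34). Myh6 had 0.149 sites per kb (0.00376 to 0.828). For the genes with 0 sites the interval reached 0.428 sites per kb in Myh7, 1.79 in Tnni3 and 2.28 in Actc1. For the short genes Tnni3 and Actc1 this limit lay above the pooled density of coding genes with a site, and for Myh7 it lay below it. The interval of Ldb3 overlapped those of Actn2, Tnnt2, Mybpc3, Tnni3 and Actc1. It lay above those of Nebl, Myh6 and Myh7.

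The exon length that enters these densities is the union over all annotated transcripts, and for some genes it includes long transcripts with retained introns. For Tnnt2 the union measured 7.752 kb and the longest coding transcript 1200 nt, on which its 2 sites gave 1.67 sites per kb. On the same measure Ldb3 had 2.15 sites per kb, Nebl 0.495, Mybpc3 0.240 and Myh6 0.164. The single site of Actn2 lay in an exon of a noncoding transcript and was lost on this measure. Counted per 100 DRACH motifs of the transcript, sites at DRACH were found at 10.99 motifs in Ldb3, 7.69 in Tnnt2, 2.63 in Nebl, 1.06 in Mybpc3 and 0.775 in Myh6.

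The sites of the filament genes are shown first, since each lies in coding sequence within 67 nt of an exon boundary. Sequences are 21 nt of the spliced transcript, 5′ to 3′, read from GRCm38.p6 and written as DNA, with the 5 bases centred on the site in capitals and the genomic position of the site after the gene name.
Myh6 54961192: tccattgaTGACTctgaggag
Myh6 54959832: ttcggcatGGACCtgcaggcc
Myh6 54950061: caagctgcAGACAgagaacgg
Mybpc3 91122857: ttccggagGGACTcaaagctg
Actc1 114051994: ttggtgtgTGACAatggctcc
Tnnt2 135848026: tgagctacAGACTctgatcga
Tnnt2 135850711: catccagaAGACAgagcggaa
All 7 pentamers match DRACH. 4 of them were listed at 1 µg and the other 3 at lower input.

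Myh6 encodes the alpha cardiac myosin heavy chain, the fast motor of the adult mouse ventricle (chromosome 14, 54941921 to 54966927, minus strand). Its only 1 µg site (position 54961192) lies in the coding part of exon 11 of 39, 26 nt from a junction. Its score was higher than that of 99.3% of the sites in the list. A second site (54959832) in exon 14, 32 nt from a junction, was listed at 300 ng only, with a score above 97.6% of that list. The third (54950061) lies in exon 27, 10 nt from a junction, and was listed at 300 ng and 100 ng, above 99.3% and 98.9% of the sites in those lists, but not at 1 µg. Myh6 is thus the member with most sites outside the 1 µg list.

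Myh7 encodes the beta cardiac myosin heavy chain, the slow motor that prevails in the fetal mouse heart (chromosome 14, 54970684 to 54994626, minus strand), and had no site on its own strand in any of the 4 lists. Its coding sequence was identical to that of Myh6 at 91.7% of 5802 aligned bases. Of the 30-nt runs of the longest coding transcript, 33.2% in Myh6 and 32.6% in Myh7 occurred unchanged in another gene, mostly in each other. The authors kept uniquely mapped reads, so reads that lie within such a run were lost. The places in Myh7 that align with the 3 Myh6 sites are shown for comparison.
Myh7 54990003: tccattgaTGACTctgaagag
Myh7 54988336: ttcggcatGGACTtgcaggcc
Myh7 54978876: caagctgcAGACAgagaatgg
Each also matches DRACH and differs from the Myh6 window at 1 of 21 bases. In the 30 nt downstream of the site the genes differed at 4, 2 and 6 bases, and none of the 3 stretches downstream of a Myh6 site occurred in another gene. The level of Myh7 transcripts and its part in this difference were not tested.

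Mybpc3 encodes cardiac myosin-binding protein C, which binds the thick filament and tunes cross-bridge cycling (chromosome 2, 91118144 to 91136516, plus strand). Its exon site (91122857) lies in exon 12 of 35, 3 nt from a junction, and was listed at 1 µg and at 300 ng with scores above 95.6% and 93.8% of the sites in the lists. Tnnt2 encodes cardiac troponin T, which ties the troponin complex to tropomyosin (chromosome 1, 135836354 to 135852260, plus strand). It had 2 coding sites at 1 µg. The one in exon 10 of 16 (135848026) lies 46 nt from a junction and was found at 1 µg only, above 96.5% of the list. The one in exon 13 (135850711) is the first base of its exon, and the 5-base context matched DRACH in both the genome and the spliced transcript. It had the highest score rank of all 9 genes at 1 µg, above 99.5% of the list, and was found again at 300 ng.

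Actc1 encodes alpha cardiac actin of the thin filament (chromosome 2, 114047282 to 114053548, minus strand). Its only site (114051994), in exon 2 of 7 and 67 nt from a junction, was listed at 300 ng alone, above 86.0% of that list. Of its 30-nt runs, 1.11% occurred in another gene, among them Actg2 and Actb, and no DRACH motif of Actc1 was followed by such a run. Tnni3 encodes cardiac troponin I, the inhibitory subunit (chromosome 7, 4518305 to 4524229, minus strand). It had no exon site in any list. 5 sites of the 1 µg list lay within its introns, and 3 of these lie in exons of Dnaaf3, a neighbouring gene on the same strand, so they cannot be assigned to Tnni3.

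Actn2 encodes alpha-actinin 2, which crosslinks actin filaments in the Z-disc (chromosome 13, 12269426 to 12340760, minus strand). Its single site (12274027), in an exon of a noncoding transcript that RefSeq places in an intron, scored above 11.4% of the 1 µg list only. 2 further sites lay 37 and 205 nt beyond its annotated end on the same strand, at 1 µg only. Nebl encodes nebulette, an actin-binding protein of the cardiac Z-disc (chromosome 2, 17343909 to 17731464, minus strand). Its 4 exon sites all lie in the 3′ untranslated region (3′ UTR), 2 of them 132 and 161 nt and 2 of them 4285 and 4380 nt after the last coding base. 1 more lay 159 nt beyond the annotated end, within the longer last exon that RefSeq gives Nebl.

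Ldb3 encodes a PDZ and LIM domain protein, also known as ZASP or Cypher, that binds alpha-actinin and stabilises the Z-disc (chromosome 14, 34526603 to 34588682, minus strand). All 11 exon sites lie in its last exon, which is 2947 nt long. They lie between 244 and 1270 nt after the last coding base of a 3′ UTR of 2860 nt. The first 4 and the best-scored Nebl site are shown because they carry the 3′ UTR pattern and include the only exon site outside DRACH.
Ldb3 34529219: ctggaattGGACTtcaggttt
Ldb3 34529142: aaaatcaaAGACTccctagcc
Ldb3 34529110: cagtgtggGGACAgagccctg
Ldb3 34529085: gttatggaGGATCtaaagtgt
Nebl 17344412: gaaagagaAAACTgaatcgca
The first 3 Ldb3 sites scored above 97.0%, 98.5% and 97.1% of the 1 µg list and were found again at 300 ng. The third was also listed at 100 ng. The fourth, at GGATC, scored above 94.8% of the list at 1 µg and was not listed at lower input. The Nebl site was found at 1 µg and 300 ng, above 74.4% and 49.7% of the sites in the lists.

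The 3′ UTRs of Ldb3 and Nebl differed in how many of their DRACH motifs carried a site. In Ldb3, 10 of 53 motifs did. The stretch from the first to the last site, which holds all sites by definition, covered 24 of the motifs. Before it lay 3 motifs and after it 26. In Nebl, 4 of 85 motifs carried a site, and the 72 motifs between the site at 161 nt and that at 4285 nt had none. Last exons of like length (within 20%) were used for scale. Among 1294 coding genes with a site and a last exon like that of Ldb3, the median was 4 sites in that exon (quartiles 2 and 7), and 89.3% had fewer than Ldb3. Among 713 such genes for Nebl, the median was 5 sites (2 and 8), and 54.1% had more than Nebl. Transcript abundance was not matched in this comparison.

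**Figure D2:**
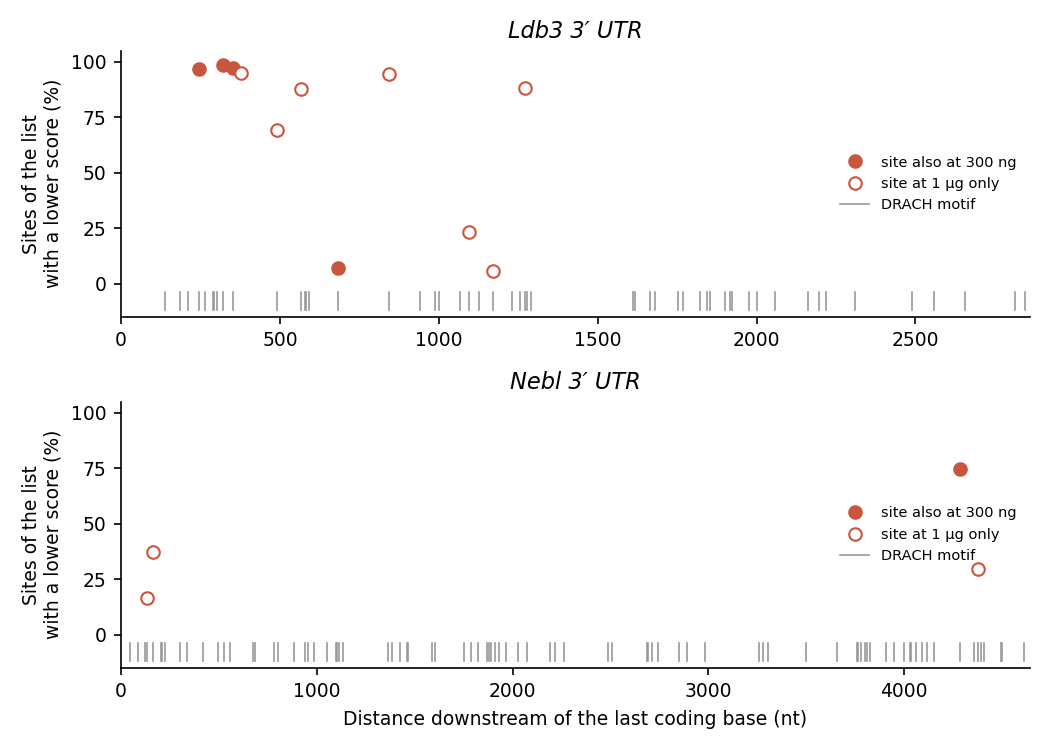
Sites of the 1 µg list along the 3′ UTRs of Ldb3 (top) and Nebl (bottom); x axis, distance downstream of the last coding base in nt; y axis, percent of sites in the list with a lower score; grey ticks, DRACH motifs. Filled points were listed again at 300 ng. The 11 Ldb3 sites lie between 244 and 1270 nt, whereas the 4 Nebl sites lie in 2 pairs at either end.

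It was next asked in which transcript region the sites lie. Of the 20 exon sites at 1 µg, 4 were in coding sequence (20%, 5.73 to 43.7%), 15 in 3′ UTRs (75%, 50.9 to 91.3%) and 1 in an exon of a noncoding transcript. Over all coding genes 48.8% of exon sites were coding and 47.7% in 3′ UTRs. All 4 sites of the filament genes were coding, and the Z-disc genes had 15 of 16 in 3′ UTRs. These 15 lay in 2 genes, 11 in Ldb3 and 4 in Nebl, and Actn2 had none. The 3′ UTRs of Ldb3 and Nebl held 53 and 85 DRACH motifs. That of Actn2 held 0, and those of the filament genes held between 0 (Myh7) and 8 (Mybpc3). The split therefore cannot be told apart from the number of 3′ UTR motifs. At 300 ng, 5 of 10 exon sites were coding (50.0%, 18.7 to 81.3%). The 4 coding sites scored above 95.6 to 99.5% of the 1 µg list, whereas the 3′ UTR sites ranged from 5.49 to 98.5% with a median of 74.4%.

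Because m6A is known to be rare near splice junctions, the position of the motifs was examined. In the 9 genes, 95.2% of coding DRACH motifs (514 motifs) lay within 100 nt of a junction, against 69.5% in coding genes with a site. Of these 514 motifs, 4 carried a site (0.778%, 0.212 to 1.98%), where the share was 1.28% in coding genes with a site and 0.614% in all coding genes. None of the 26 coding motifs further away did (0 to 13.2%), where the share was 15.8% in coding genes with a site and 6.95% in all coding genes. Over coding sequence and UTRs together, 14 of 193 motifs over 100 nt from a junction carried a site (7.25%, 4.02 to 11.9%). This share was 8.82% in coding genes with a site and 4.20% in all coding genes. All 14 were in the 3′ UTRs of Ldb3 and Nebl. The former reference was chosen for having a site, whereas 3 of the 9 genes had none, and each of these reference shares except that of 15.8% lay within the interval of the 9 genes.

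**Figure D3:**
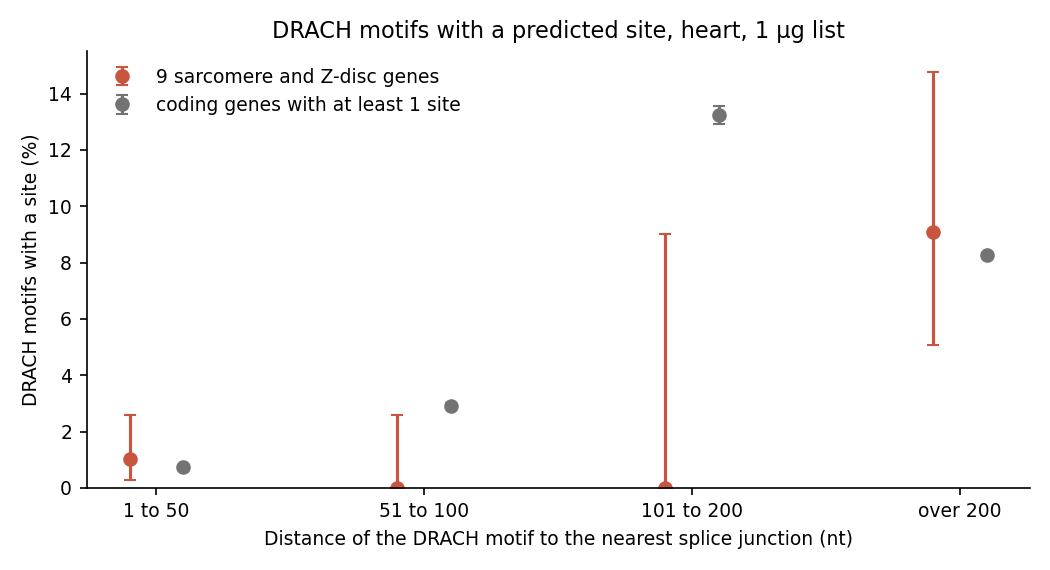
Percent of DRACH motifs with a site in the 1 µg list (y axis) by distance to the nearest splice junction in nt (x axis), for the 9 genes and for coding genes with at least 1 site; bars are exact binomial 95% intervals. In the 9 genes 14 of 154 motifs over 200 nt from a junction and 4 of 393 motifs within 50 nt had a site, and no motif in between did.

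The members have few long exons. Only 4 of the 209 exons of their longest coding transcripts (1.91%) were over 400 nt, against 12.2% in coding genes with a site. The median exon was 120 nt in the members and 135 nt in coding genes with a site. The member exons over 400 nt held 15 of the 19 sites in the transcripts (78.9%). In coding genes with a site, exons over 400 nt held 93.7%. 7 of the 9 genes had no exon over 400 nt, and 4 of these 7 had a site at 1 µg, in all 5 sites or 0.144 sites per kb (0.0467 to 0.336). Among 3320 coding genes without such an exon, 16.2% had a site, with a pooled density of 0.140 sites per kb. Ldb3 and Nebl, with such an exon, together had 0.703 sites per kb (0.393 to 1.16), and the 18546 coding genes with one 0.483. The value of all coding genes lay within the interval of the members in both classes.

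The other proteins of the sarcomere were described with a list of 40 genes. 35 of the 40 had a site at 1 µg, where 38.3% of coding genes had one, with 456 sites, a median of 2 sites per gene and a median of 0.764 sites per kb. Pooled they had 1.31 sites per kb (1.19 to 1.43), or 1.13 (0.993 to 1.27) without Ttn. Among the genes with most sites were Ttn, the giant elastic protein titin (195 sites), Xirp2 (40), Xirp1 (33) and Cmya5 (26). By density, among genes with at least 3 sites, Xirp1 (5.65 sites per kb), Lmod2 (3.54), Xirp2 (3.34), Bag3 (3.12) and Synpo2l (3.02) led. 5 genes had none, namely Myl2, Myl7, Tnni1, Myom3 and Neb. 27 of the 40 genes had an exon over 400 nt, and they had 1.43 sites per kb (1.297 to 1.568), whereas the 13 others had 0.476 (0.295 to 0.727). Across the 9 and the 40 genes together, the length of the longest exon and the density had a Spearman correlation of 0.51 (49 genes of 1 library, which are not independent replicates). All 12 genes of a list of calcium handling proteins had a site, with 122 sites in all, a median of 11 sites and a median of 0.779 sites per kb.

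**Figure D4:**
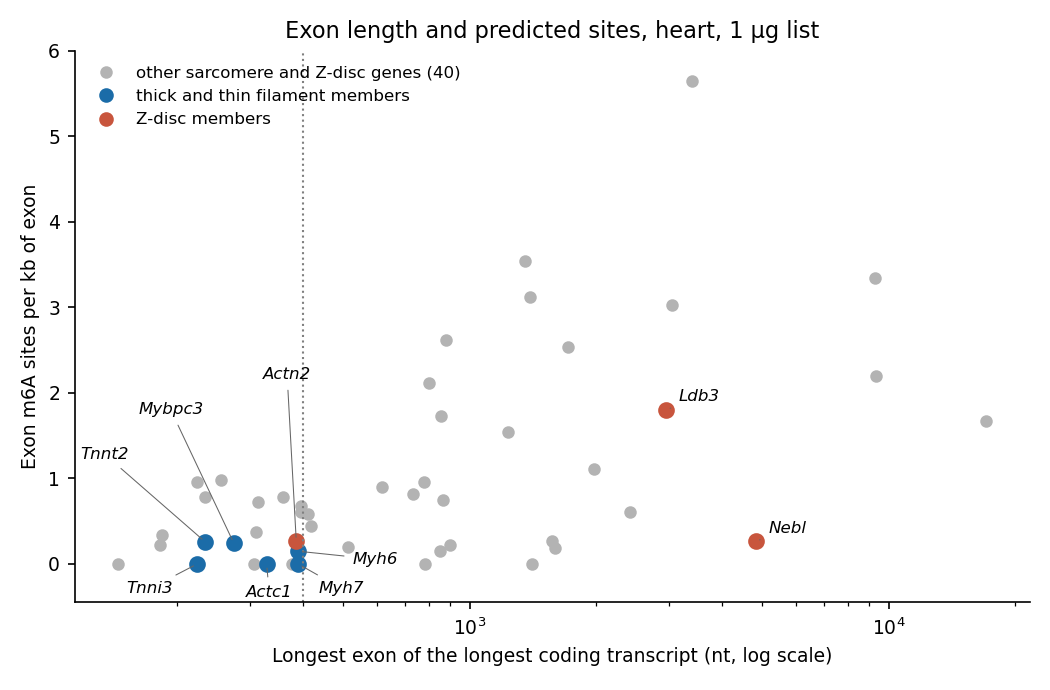
Exon sites per kb in the 1 µg list (y axis) against the longest exon of the longest coding transcript in nt (x axis, log scale) for the 9 genes (coloured) and 40 other sarcomere genes (grey); the dotted line marks 400 nt. The 7 members left of the line lie between 0 and 0.264 sites per kb, Ldb3 lies at 1.80 and Nebl at 0.263.

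The lists also allowed asking how the sites of the 9 genes fared at lower input. The 1 µg list held 20 exon sites, that of 300 ng 10, that of 100 ng 2 and that of 50 ng none. Genes with a site numbered 6, 6, 2 and 0, where 38.3%, 16.0%, 3.17% and 0.861% of all coding genes had one. Of the 20 sites at 1 µg, 7 were found again at 300 ng at the same position (35.0%, 15.4 to 59.2%), against 18.3% of the exon sites of all coding genes. They were 4 in Ldb3 and 1 each in Mybpc3, Tnnt2 and Nebl. In the other direction, 7 of 10 sites at 300 ng were listed at 1 µg (70.0%, 34.8 to 93.3%), against 93.5% for all coding genes. The 3 sites missing at 1 µg were those of Actc1 and 2 of Myh6, all in coding sequence within 100 nt of a junction, and all 3 ranked above 86.0% of the 300 ng list or higher. Most coding DRACH motifs of these genes lie that close to a junction. In Myh6 116 did and 7 lay further away, and in Actc1 19 did and 3 lay further away. At 100 ng the sites were 1 in Ldb3, also listed at 1 µg, and 1 in Myh6, not listed there. In other sarcomere genes 25 sites in 11 genes were still listed at 50 ng.

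**Figure D5:**
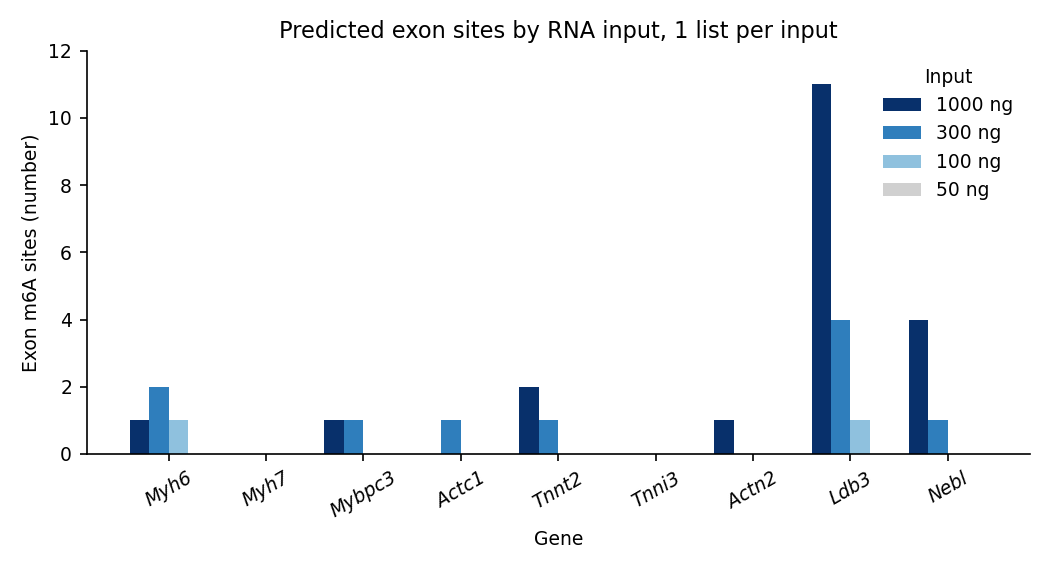
Number of exon sites (y axis) of each of the 9 genes (x axis) in the heart lists of 1000, 300, 100 and 50 ng, with 1 list per input. Ldb3 falls from 11 sites to 4, 1 and 0, whereas Myh6 has 1, 2, 1 and 0 sites.

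Intron sites were counted apart. 15 sites of the 1 µg list lay in introns of the 9 genes, 7 in Ldb3, 5 in Tnni3 and 1 each in Mybpc3, Tnnt2 and Nebl. These counts and the median rank below include the 3 Tnni3 sites that lie in exons of Dnaaf3 and cannot be assigned to Tnni3. The 7 in Ldb3 were clustered between positions 34571514 and 34573666, and 1 of them was also listed at 300 ng. Intron sites had a median score rank above 38.1% of the 1 µg list. The marker lists of other cell types gave sites in 5 of 5 fibroblast, 4 of 4 endothelial and 3 of 4 smooth muscle genes. They gave sites in 1 of 8 skeletal muscle fibre and 1 of 3 blood genes, beside 6 of 12 cardiomyocyte genes. Of all coding genes, 38.3% had an exon site at 1 µg. The cardiomyocyte list is not separate from the members, as 7 of its genes and 4 of its 6 genes with a site are members. A site shows that a transcript was present and not how much of it, so the makeup of the tissue RNA cannot be read from these counts.

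None of the 9 genes had an exon site in the mESC list, in which 30.1% of coding genes had one. The mESC RNA-seq libraries, which were deep (22746733 to 27254245 gene counts), showed how far these cells express them. Mettl3 itself had 560, 698 and 612 counts in the WT libraries and 462, 669 and 457 in the KO libraries, with a log2 fold change of -0.50 (SE 0.14) and an adjusted p of 0.0134 (edgeR), which missed the threshold of 0.01. A gene count takes in reads from outside any deleted part, so it is a weak check of the KO label. By mass spectrometry, the paper reports that m6A of poly(A)+ RNA was significantly depleted in these KO cells. The KO cells also differed from WT by more than the targeted gene, as Eif2s3y, a gene of the Y chromosome, had 0 counts in every WT library and 1458, 1791 and 1669 in the KO. In such bulk samples fewer cells of a type and less RNA per cell cannot be told apart.

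Reads of the 9 genes were few, between 0.00124% and 0.00299% of gene counts per library. Actc1 had 0 counts in all 6 libraries. The WT libraries held 4, 7 and 5 counts of Nebl and the KO libraries 5, 9 and 4. Mybpc3 had 9, 3 and 20 counts across the WT libraries and 4, 16 and 5 across the KO libraries. For Myh7, 3, 0 and 1 counts of WT stood against 20, 1 and 0 of KO. These 4 genes did not pass the filter on low counts. The other 5 were tested with edgeR's quasi-likelihood model and Benjamini-Hochberg adjustment over 15731 genes. At a threshold of 0.01 for the adjusted p, 0 of the 5 changed between KO and WT, where 29.7% of all genes tested did (17.1% higher and 12.6% lower in KO). With an unadjusted p under 0.05, 4 of the 5 passed, as did 54.1% of all genes, and DESeq2 called 1 of the 8 members it tested, Ldb3, beside 26.8% of all genes it tested. With the replicate number as a block edgeR called 2 of the 5, Actn2 and Ldb3, where it called 43.5% of all genes tested.

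Ldb3 had 6.13, 12.02 and 5.33 CPM (counts scaled by library size) in WT and 3.30, 4.42 and 2.47 in KO. The ranges did not overlap, as for 56.1% of all genes tested, and WT replicate 2 stood above both other WT libraries. The log2 fold change was -1.21 (SE 0.34, adjusted p 0.0143 in edgeR), and -1.16 with an adjusted p of 1.13e-04 under the replicate block. Without WT replicate 2 it was -0.76 (adjusted p 0.0481 in edgeR). Actn2 had 1.41, 1.71 and 1.46 CPM in WT and 2.58, 2.90 and 2.99 in KO, again without overlap. Its log2 fold change was 0.88 (SE 0.24, adjusted p 0.0129), and 0.88 with an adjusted p of 0.00653 under the block. Myh6 had 0.472, 0.418 and 0.708 CPM in WT and 1.31, 1.45 and 0.849 in KO, with every KO library above every WT library. For Myh6 the log2 fold change was 1.18 (SE 0.35, adjusted p 0.0198 in edgeR).

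Tnni3 had 7.40, 12.2 and 5.29 CPM in WT and 5.41, 5.16 and 4.83 in KO, so that WT replicate 3 lay within the KO range. Its log2 fold change was -0.70 (SE 0.28, adjusted p 0.0645 in edgeR) and it was called only without WT replicate 3 (-0.94, adjusted p 0.00645). Without WT replicate 2, the library with the highest level, it was -0.32 (adjusted p 0.288 in edgeR). Tnnt2 had 0.377, 1.37 and 0.236 CPM in WT and 0.676, 0.775 and 0.627 in KO. WT replicate 2 stood apart from the other WT libraries for this gene, and the log2 fold change was 0.02 (SE 0.55, adjusted p 0.983 in edgeR). No member has an exon site in the mESC list, so these values concern transcript abundance and not the sites.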

How the data were processed

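The heart lists deposited by the authors give 1 position per predicted m6A site with a score whose scale is not stated and which was used only for ranks. The mESC list deposited by the authors carries a prediction score as a fraction, of which only positions were used. The authors mapped reads to GRCm38 with STAR, kept uniquely mapped reads, removed duplicates with UMI-tools 1.0.0, called peaks with PureCLIP and applied m6Aboost. They made the deposited gene counts with STAR and HTSeq 0.12.4. Lines that name no gene (36.7 to 42.7% of the counts of each library) were left out.

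Sites were placed on GENCODE M21 (the authors used a later release) and, as a check, on RefSeq, with Python 3.11.15. A site counted for a gene if it lay in an exon of any of its transcripts on its strand. The region was coding if coding in any coding transcript, and junction distances were taken along the longest coding transcript. Intervals are exact Poisson for densities and Clopper-Pearson for shares. RNA-seq was fitted with edgeR 4.0.16 (filterByExpr, TMM, glmQLFit, glmQLFTest, no covariates) on the whole table, with DESeq2 1.42.0 as an alternative. Scripts were tested on simulated data. The sources call the mESC miCLIP2 replicates biological, and the RNA-seq labels number the libraries without naming cultures, so p-values measure the spread between these libraries. Deviations from the group means correlated between same-numbered libraries at 0.122, 0.464 and 0.303. The labels state no pairing, and no correlation between differently numbered libraries is given for scale. Whether the libraries are paired is therefore not settled here. The fit reported has no pairing term, and the fit with the replicate number as a block is given beside it. Named are all 9 members, the 5 other sarcomere genes with most sites (1 of which is not reported here) and the 5 with the highest density among those with at least 3 sites, and genes that share 30-nt runs with a member. For the fibroblast, endothelial, smooth muscle, skeletal muscle fibre, blood and calcium handling lists only counts and medians are given. Eif2s3y was named after its values were seen. Members, lists and tests were chosen with earlier results of these data known.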

Additional observations from a re-analysis of the deposited data

Results flagged for a closer look

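Sites on the other strand of a member, or beyond its annotated ends, entered no comparison above, and at 2 places they numbered more than the 3 sites that a count of 0 allows. On the strand opposite Myh7, 29 sites were listed at 1 µg, over 20.1 kb between positions 54972206 and 54992335 of chromosome 14. The list of 300 ng held 14 sites there, that of 100 ng 1 and that of 50 ng none. 28 of the 29 match DRACH on the plus strand, and their scores ranged from above 0.0280% to above 99.5% of the list. GENCODE M21 places 4 in exons and 7 in introns of Gm31251, 1 each in an exon and an intron of Mhrt, a long noncoding RNA of this locus, 1 in an exon of Gm29015 and 15 in no gene of that strand. RefSeq, which gives Gm31251 a longer span, places 12 in its exons and 10 in its introns, 1 in an exon and 2 in introns of Mhrt, and 4 in no gene. 7 of the 29 lie at positions of Myh7 exons. Myh7 itself had 0 sites on its own strand.

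Upstream of Actc1 and on its strand, 10 sites were listed at 1 µg between 2041 and 5036 nt from the annotated start, where GENCODE M21 has no gene. 5 of these positions were listed at 300 ng, 3 at 100 ng and 1 at 50 ng. All match DRACH. RefSeq places 3 of the 10 in an exon of the noncoding gene Gm46757 and 7 in no gene. The site listed at 50 ng (position 114058565 of chromosome 2) scored above 99.9% of the 1 µg list, 83.9% of the 100 ng list and 21.4% of the 50 ng list. Its 1 µg score is the highest of that list, which 61 sites share, 3 of these 10 among them. Actc1 had 0 exon sites at 1 µg.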

How the results depend on the processing

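The pooled density of the 9 genes stayed within its interval on the longest coding transcript (0.523 sites per kb), on exons of coding transcripts (0.468), with DRACH sites only (0.339), with sites above the median score (0.232) and on RefSeq exons (0.387, chosen after seeing the data). Without Ldb3 it was 0.180. The filament and Z-disc groups were not compared under these alternatives. The coding share, the share found again at 300 ng and the share of motifs with a site stayed within their intervals in every alternative run. By gene, Tnnt2 moved out of its interval on the longest coding transcript (1.67) and on RefSeq exons (1.53), Actn2 fell to 0 in each alternative run for it, and Nebl moved to 0.0656 with sites above the median score.

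Of the members, 0 changed in the KO in the fit reported. With the replicate number as a block 2 did (Actn2 and Ldb3, where 43.5% of all genes tested were called), in DESeq2 1 (Ldb3, 26.8%), with no filter beyond 1 count 2 (Myh6 and Ldb3, 20.6%), with at least 10 counts in every library 1 (Actn2, 28.4%), and at an adjusted p of 0.05 3 (Myh6, Actn2 and Ldb3, 46.6%). The fit reported called 29.7% of all genes tested. Leaving out each replicate in turn gave 0 to 2, the 2 being Tnni3 and Ldb3 without WT replicate 3, where 33.1% of all genes were called. The range of the adjusted p was 1.33e-05 to 0.0551 for Ldb3, 0.00653 to 0.0518 for Actn2, 0.00936 to 0.0722 for Myh6, 0.00645 to 0.288 for Tnni3 and 0.0561 to 0.989 for Tnnt2. The log2 fold change of Tnnt2 turned to -0.26 without WT replicate 1, -0.37 without WT replicate 3 and -0.06 without KO replicate 2, and was 1.16 without WT replicate 2. The cause was not tested. With 1 library per input and no read depth in the lists, a site missing from a list cannot be called absent, and counts of 0 to 4 sites leave wide intervals for 8 of the 9 genes.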
